A study of Mus musculus with 5 samples.

Results

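The 41 genes described here are genes that cells switch on in response to interferons, and they were taken by symbol from the 52542 genes of the UMI tables. No cut on a measured value was applied, but the list was made with earlier results of these data known. All 41 symbols had a row. They were followed in single CD45highCD11bhigh cells, the gate used by the study to enrich monocyte-derived macrophages, sorted from the brains of DM-hTAU mice. DM-hTAU mice carry a human tau transgene with a pair of mutations linked to frontotemporal dementia. By their labels, all 5 libraries came from mice aged 9 months that received aPDL1, an antibody that blocks the checkpoint ligand PD-L1. Every library therefore shared the genotype, the antibody and the age, and no well was labelled with the isotype control, so no treatment comparison was possible. The labels describe a preparation of thymus and small intestine beside the tissue brain, and which mouse gave which cell was not known from the sources. MARS-seq captures the 3′ end of each polyadenylated RNA in a well and counts it by its unique molecular identifier (UMI).

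Interferons reach cells through a pair of receptor systems. Type I interferons, such as interferon-beta, signal through Ifnar1 and Ifnar2 to a complex with Stat2 and Irf9, which binds the interferon-stimulated response element (ISRE) in promoters of antiviral genes such as the Ifit family and Isg15. Interferon-gamma, made mainly by T cells and NK cells, signals through Ifngr1 and Ifngr2 to promoters with the gamma-activated site (GAS), and it is known for inducing Cxcl9, guanylate-binding proteins, immunity-related GTPases and MHC class II. The programs overlap, and many of the genes below answer to both. For a compact view, Ifit1, Ifit2, Ifit3, Isg15, Oas1a and Oasl2 are called the type I set, and Cxcl9, Gbp2, Gbp3, Gbp5, Gbp7 and Iigp1 the interferon-gamma set.

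Promoter sequence was available for 30 of the 41 genes, from RefSeq on GRCm38.p6, and the 250 bases before each start were searched for the ISRE core, GAAANN followed by GAAA, on both strands and for the GAS letters TTCNNNGAA, which read the same on both strands. The ISRE letters were present in 16 of the 30 promoters (53.3%), against 3.46% of all 27025 promoters in the table. The GAS letters were present in 8 of the 30 (26.7%), against 8.13% of all promoters. By set, 4 of 6 type I promoters and 4 of the 5 interferon-gamma promoters held the ISRE letters. The windows below, 5′ to 3′ along the gene, show how alike the core is in genes of both kinds, with the matched letters in capitals. Those that match on the other strand begin with TTTC. The first group holds antiviral genes of the type I response.
Isg15: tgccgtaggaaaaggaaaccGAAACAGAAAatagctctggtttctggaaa
Ifit1: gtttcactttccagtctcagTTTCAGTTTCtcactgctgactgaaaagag
Ifit3: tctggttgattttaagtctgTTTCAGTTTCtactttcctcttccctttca
Rsad2: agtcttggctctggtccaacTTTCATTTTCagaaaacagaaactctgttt
Bst2: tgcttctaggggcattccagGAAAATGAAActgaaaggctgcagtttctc
These windows lie at chr4:156200855-156200904 on the minus strand (Isg15), chr19:34640784-34640833 and chr19:34583387-34583436 on the plus strand (Ifit1 and Ifit3), chr12:26456543-26456592 on the minus strand (Rsad2) and chr8:71537573-71537622 on the minus strand (Bst2). The next group holds genes known as interferon-gamma targets, the last with GAS letters.
Cxcl10: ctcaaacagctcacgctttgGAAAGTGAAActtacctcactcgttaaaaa
Gbp7: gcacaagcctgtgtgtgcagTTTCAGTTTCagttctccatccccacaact
Igtp: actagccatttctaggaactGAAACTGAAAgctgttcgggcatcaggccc
Irf1: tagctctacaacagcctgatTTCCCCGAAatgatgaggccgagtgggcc
They lie at chr5:92349073-92349122 on the minus strand (Cxcl10), chr3:142530263-142530312 (Gbp7), chr11:58199502-58199551 (Igtp) and chr11:53769904-53769952 (Irf1), the last 3 on the plus strand. All windows printed are upstream of the annotated gene. A match is a description of these letters and not evidence of binding.

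Of 1920 wells, 1900 held a cell, and 825 cells with at least 500 UMIs were kept, with a median of 1015 UMIs. The libraries contributed 68, 87, 285, 71 and 314 cells for replicates 1 to 5, and replicates 3 and 5 were also the deepest, with median depths of 1168 and 1267.5 UMIs per cell against 651 to 759 in the others. Cells were put in classes by summed marker levels per 10000 UMIs, and each class is named after the markers that gate it. The classes thus come from the same cells as the values below, and MHC class II, which chooses between several of them, is itself known to be induced by interferon-gamma. The classes were microglia with low MHC class II (206 cells), microglia with high MHC class II (54), border-type macrophages with markers such as Pf4 and Mrc1 (80), MHC class II-high cells without border markers (158), Cd209a cells with dendritic cell markers (48), monocytes with markers such as Ly6c2 and Ccr2 (41) and neutrophils (30). A further 6 cells carried T or NK cell markers, and 202 cells met no gate. The microglial markers summed to 182 UMIs per 10000 in MHC class II-low microglia. They reached at most 35.3 in the other classes outside the microglia and the ungated cells. The gates use these same markers, so this contrast was set in advance and is no separate evidence of identity. Neutrophil markers reached 69.2 to 101 per 10000 in every other class of replicate 2 with at least 5 cells, against 10.5 to 18.01 in the same classes and the border-type macrophages with the libraries pooled, and the part of this in the results was not tested.

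The 41 genes gave 8046 UMIs in the kept cells, 71.0 per 10000 (exact Poisson 95% interval 69.5 to 72.6, which covers counting error only). Single genes ranged from 19 UMIs for Gbp5 to 2158 for Ly6e, and 39 genes had at least 30. Empty wells gave 1 UMI of these genes among 320 UMIs. By library, the level of all 41 genes was 37.8, 39.7, 77.1, 39.8 and 77.5 per 10000 in replicates 1 to 5, and was higher in both deep libraries than in the others. The make-up of the libraries differed too, since replicates 3 and 5 held 36 each of the 80 border-type macrophages and 67 and 65 of the 158 MHC class II-high cells without border markers. For that reason levels are given by class and library, and a library enters a class only with at least 5 cells of it.

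The level of all 41 genes was lowest in MHC class II-low microglia (42.9 per 10000) and highest in monocytes (114) with the libraries pooled. In MHC class II-low microglia it was 31.6, 26.4, 44.5, 22.003 and 48.8 per 10000 in replicates 1 to 5. The values in MHC class II-high cells without border markers were 63.4, 27.0, 105 and 100 in replicates 1, 2, 3 and 5. In border-type macrophages it was 80.8 and 91.8 in replicates 3 and 5. These values exceeded those of MHC class II-low microglia of the same library in 4 of 4 and in 2 of 2 libraries, although in replicate 2 the gap was small. MHC class II-high microglia were above MHC class II-low microglia in 5 of 5 libraries, with 53.9, 47.5, 71.6, 31.0 and 76.7 per 10000. Monocytes gave 41.5, 178 and 100 in replicates 1, 3 and 5, above MHC class II-high cells without border markers in replicate 3, level with them in replicate 5 and below them in replicate 1. Cd209a cells gave 37.9, 39.6 and 60.7 in replicates 2, 3 and 5, on both sides of MHC class II-low microglia, and neutrophils 30.4, 37.2 and 49.2 in replicates 2, 4 and 5. No test was made on these sums.

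**Figure D1:**
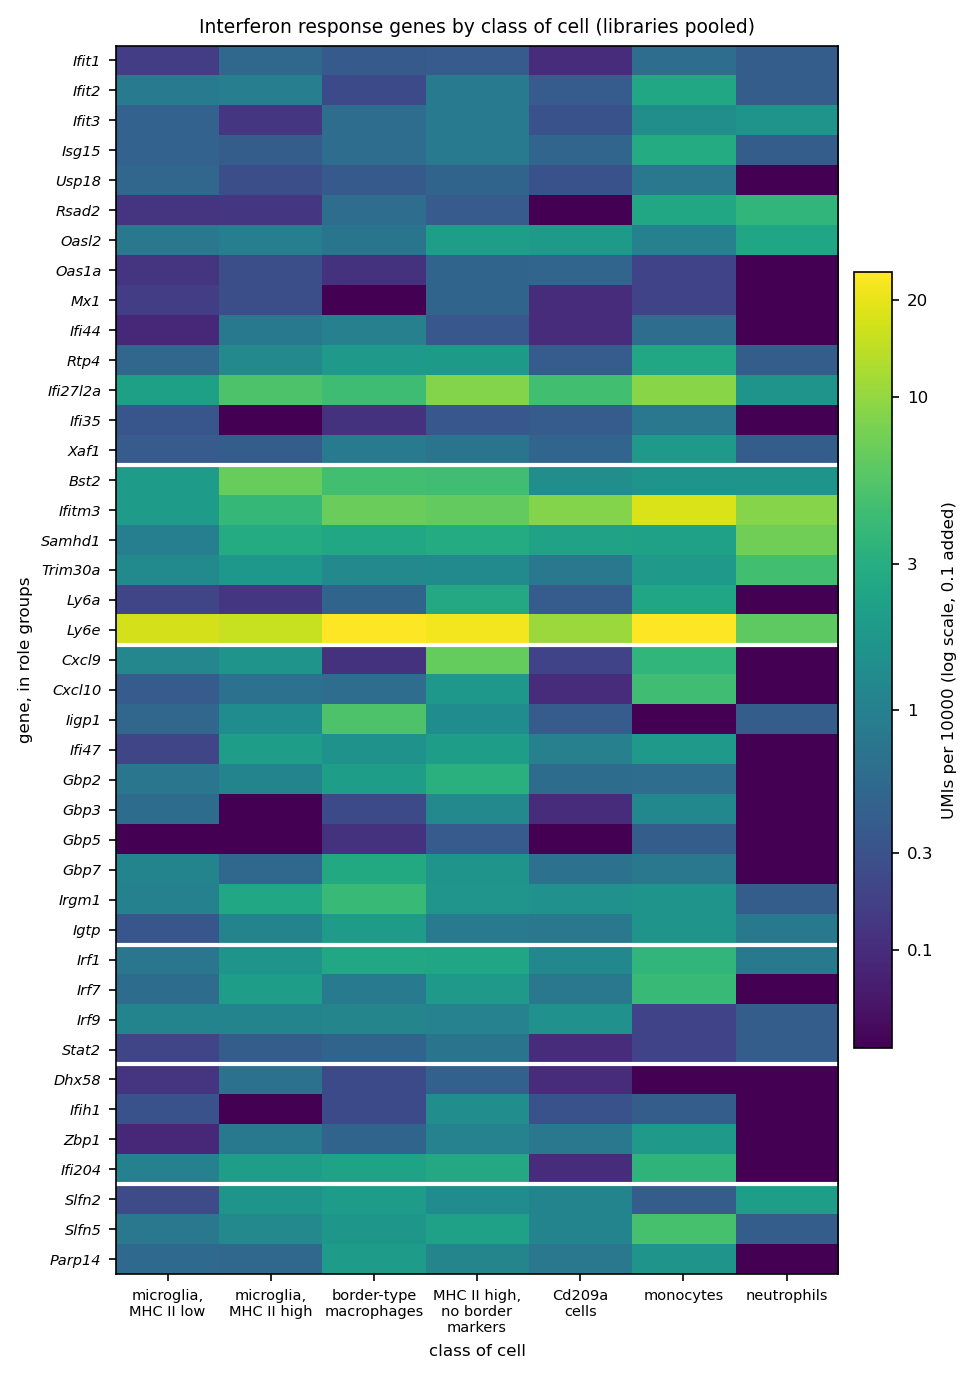
Pooled level of each of the 41 genes (rows, separated by role) in 7 classes of cell (columns), in UMIs per 10000 on a log color scale. Ly6e is bright in every column. Monocytes hold the highest level of 16 genes and MHC class II-low microglia of none, and the shares over all genes were not counted.

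Gene by gene, the pooled level was above that of MHC class II-low microglia for 38 of the 41 genes in MHC class II-high cells without border markers, for 34 in monocytes, for 31 in border-type macrophages and for 29 in MHC class II-high microglia. Among all 7176 genes with at least 19 UMIs, the shares above MHC class II-low microglia were 44.8%, 37.5%, 41.5% and 43.9% in the same order. In Cd209a cells the count was 21 of 41 against 40.3% of all genes, and in neutrophils 12 of 41 against 21.6%. Counted within libraries, MHC class II-high cells without border markers gave 36 of 41 in replicate 3 and 36 of 41 in replicate 5, where 46.3% and 47.1% of all genes were above. In replicate 1 it was 10 higher and 11 lower, and in replicate 2 it was 16 higher and 1 lower, with 20 and 24 genes at 0 UMIs in both classes and 18.8% and 30.2% of all genes above. In monocytes the counts were 33 and 26 in replicates 3 and 5, where 34.4% and 32.2% of all genes were above. In replicate 1 it was 8 higher and 12 lower, with 15.5% of all genes above. In border-type macrophages the counts were 29 and 26 in replicates 3 and 5, against 39% and 39.6% of all genes. In MHC class II-high microglia they were 28 and 24 in replicates 3 and 5, against 40.6% and 35.5%. In replicate 1 it was 10 higher and 12 lower, in replicate 2 it was 9 and 3 and in replicate 4 it was 4 and 5. There 16.3%, 24.2% and 14.1% of all genes were above, and 19, 29 and 32 members were at 0 UMIs in both classes. In replicates 2 and 4 the share of the 41 genes above was thus smaller than that of all genes. The class with the highest level was the monocytes for 16 genes, MHC class II-high cells without border markers for 8 and border-type macrophages for 7. It was the neutrophils for 6, and MHC class II-high microglia and Cd209a cells for 2 each. The share of all genes highest in each class was not counted. Monocytes and neutrophils had the fewest UMIs of the gated classes, 49202 and 24413, so a few UMIs weigh more there. In monocytes all 4 Ifi35 UMIs were in a single cell.

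The balance of the sets differed between classes. In MHC class II-high cells without border markers, the interferon-gamma set gave 412 UMIs (14.4 per 10000, exact Poisson 95% interval 13.1 to 15.9) and the type I set 159 (5.57, 4.73 to 6.501). In border-type macrophages the interferon-gamma set gave 85 UMIs (10.5 per 10000, 8.40 to 13.01) against 22 of the type I set (2.72, 1.71 to 4.12). Of the UMIs of both sets, the type I set held 27.8% (exact binomial 95% interval 24.2 to 31.7) in the former and 20.6% (13.4 to 29.5) in the latter. In MHC class II-low microglia it held 40.96% (33.4 to 48.9) and in MHC class II-high microglia 41.4% (28.6 to 55.1). In Cd209a cells it held 64.9% (51.1 to 77.1), and in neutrophils 13 of the 14 UMIs. Monocytes gave 56.6% (44.7 to 67.9). These intervals cover counting error only. The shares rest in part on different single genes. Iigp1 gave 42 of the 85 interferon-gamma UMIs in border-type macrophages, and Cxcl9 gave 1. In MHC class II-high cells without border markers Cxcl9 gave 189 of the 412. Oasl2 gave 19 of the 37 type I UMIs in Cd209a cells.

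The order held in part within libraries. Replicate 3 of MHC class II-high cells without border markers gave 76 type I and 174 interferon-gamma UMIs and replicate 5 gave 77 and 233. In border-type macrophages the pairs were 12 and 39 in replicate 3 and 9 and 46 in replicate 5. Cd209a cells gave 25 type I and 6 interferon-gamma UMIs in replicate 5 but 11 and 14 in replicate 3, so their excess of type I UMIs came from replicate 5. Monocytes gave 34 and 23 in replicate 3 and 7 and 7 in replicate 5. Over all their kept cells, the other 3 libraries held 5 to 13 type I and 7 to 17 interferon-gamma UMIs each. The difference between classes in this share was not tested.

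**Figure D2:**
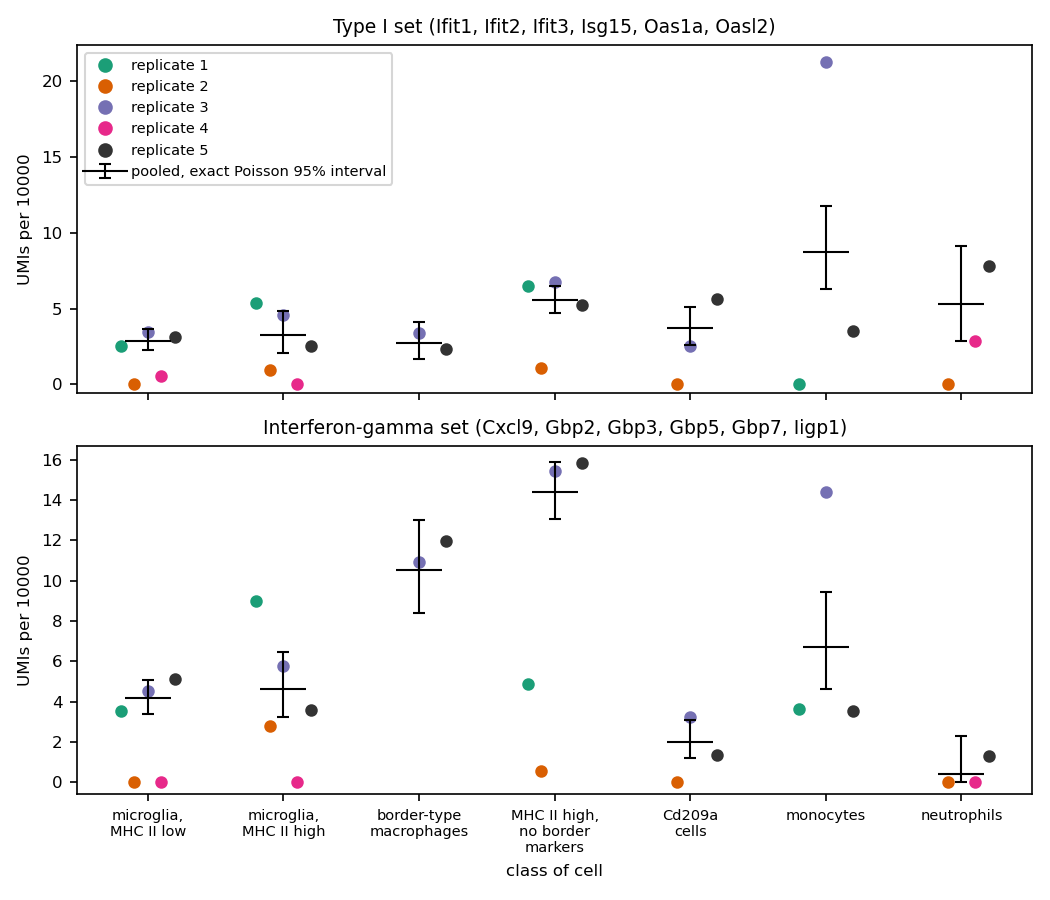
Level of the type I set (upper) and the interferon-gamma set (lower) in UMIs per 10000, by class of cell. Points are libraries with at least 5 cells of the class and black bars the pooled level with its exact Poisson 95% interval. The pooled interferon-gamma set stood highest in MHC class II-high cells without border markers, at 15.5 and 15.9 in replicates 3 and 5. In replicates 1 and 2 it was 4.87 and 0.540 there, below MHC class II-high microglia at 8.99 and 2.80. The monocyte type I level was set by replicate 3 at 21.3.

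Both sets were held by few cells. At least 1 type I UMI was found in 201 cells (24.4%), and 25 cells (3.03%) had at least 5. Of these 25 cells, 13 came from replicate 3 and 12 from replicate 5. The 25 highest cells held 38.8% of all 484 type I UMIs. For the interferon-gamma set, 48 cells had at least 5 UMIs, 25 of them MHC class II-high cells without border markers (15.8% of that class), 5 border-type macrophages and 5 MHC class II-low microglia. The 25 highest cells held 45.2% of the 832 interferon-gamma UMIs. At least 5 UMIs of both sets were found in 4 cells, 16% of the 25 cells with at least 5 type I UMIs. Of all kept cells, 5.82% had at least 5 interferon-gamma UMIs and 27.8% had at least 1. These counts were not matched for depth or class. Of the 25 cells high in type I genes, 10 had no interferon-gamma UMI, and of the 48 cells high in interferon-gamma genes, 19 had no type I UMI.

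The cells at the top show what these responses look like in single cells. The cell with most interferon-gamma UMIs was an MHC class II-high cell without border markers of replicate 5, with 2705 UMIs in all. It held 48 of the 268 Cxcl9 UMIs of the kept cells, 18 of the 113 Cxcl10 UMIs and 9 Gbp2 UMIs, beside 2 type I UMIs, both Oasl2. A replicate 3 cell of the same class with 1159 UMIs held 24 Cxcl9, 7 Cxcl10 and 8 Iigp1 UMIs and no type I UMI. The cell with most type I UMIs carried T or NK cell markers and came from replicate 5, with 22 type I UMIs among 3841, of which 10 were Ifit1 and 7 Ifit3. It had no interferon-gamma UMI. A pair of replicate 3 monocytes held 12 and 10 type I UMIs, and the second also held 9 Rsad2 and 7 Cxcl10 UMIs. An MHC class II-low microglia of replicate 5 was high in both sets, with 12 type I and 15 interferon-gamma UMIs, 10 of them Cxcl9, among 878 UMIs.

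Depth differed between classes, from a median of 668.5 UMIs in neutrophils to 1860.5 in Cd209a cells, so detection was also counted after thinning each cell to 500 UMIs. The share of cells with an interferon-gamma UMI was then 29.1% (exact binomial 95% interval 22.2 to 36.9) in MHC class II-high cells without border markers and 25% (16.0 to 35.9) in border-type macrophages. It was 9.71% (6.03 to 14.6) in MHC class II-low microglia and 4.17% (0.509 to 14.3) in Cd209a cells. As counted, these shares were 44.9%, 32.5%, 20.9% and 18.8%. Neutrophils gave 0 of 30 thinned cells, with an upper bound of 11.6%. The share with a type I UMI after thinning was 25.3% (18.7 to 32.8) in MHC class II-high cells without border markers, 45.6% as counted, and lay between 9.22% and 17.1% in the other gated classes, 13.1% to 29.2% as counted. These intervals cover the counting of cells only. Cells of a library are not independent, and replicates 3 and 5 gave 67 and 65 of the 158 MHC class II-high cells without border markers. Within these 2 libraries the thinned interferon-gamma share was 29.9% and 35.4% in that class and 16.2% and 7.89% in MHC class II-low microglia, and in replicates 1 and 2 it was 1 of 9 and 1 of 15 cells in that class. Over all classes and libraries, an interferon-gamma UMI was present in 33.1% of thinned cells with a type I UMI and in 13.8% of those without. Within replicate 3 these shares were 42.1% and 19.3%, and within replicate 5 they were 30.2% and 15.7%. The other 3 libraries held 3 to 6 thinned cells with a type I UMI each, and 1 cell with both. Classes were not separated in these shares.

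**Figure D3:**
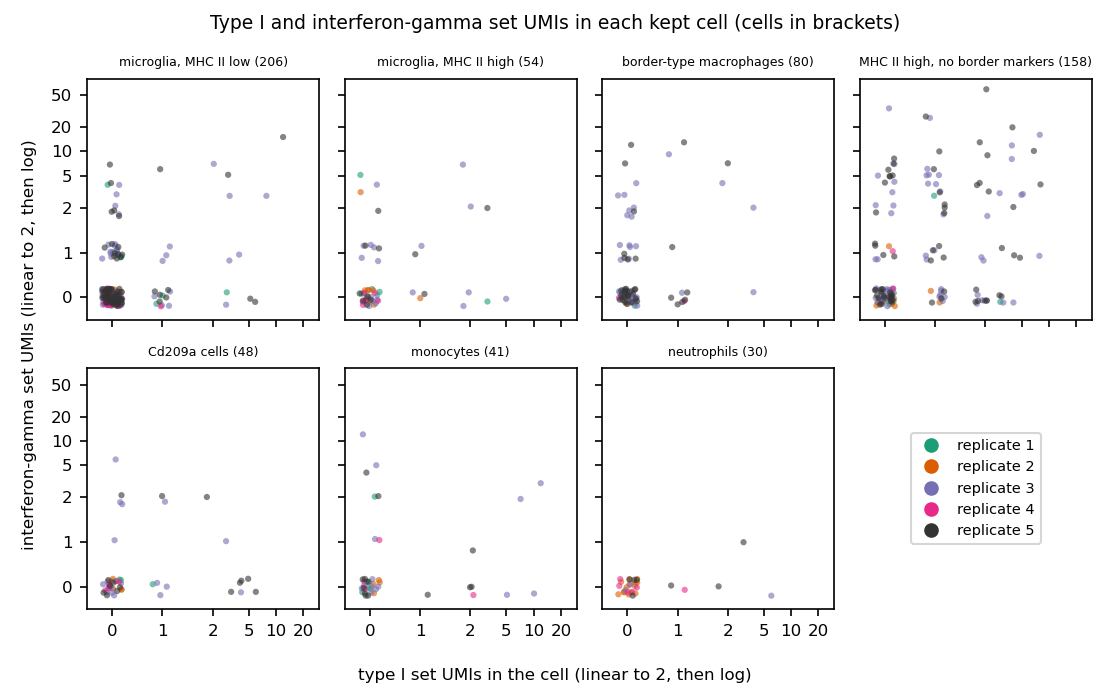
Type I set UMIs (horizontal) and interferon-gamma set UMIs (vertical) in each kept cell of 7 classes, linear to 2 and logarithmic above, with small random shifts and colors for the library. Most cells lie at 0 of both, and the cell with 59 interferon-gamma UMIs is an MHC class II-high cell without border markers.

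To test classes, the UMIs of all cells of a class in a library were added up, and each class was compared with MHC class II-low microglia in edgeR (quasi-likelihood fit, libraries as blocks, Benjamini-Hochberg adjusted p). After the filter on low counts 784 genes were tested, among them 7 of the 41, Ifi27l2a, Bst2, Ifitm3, Samhd1, Trim30a, Ly6e and Cxcl9, so nothing below stands for all members. A gene could pass the filter through a class in which it was abundant. The share of the 784 genes called was 15.3% for MHC class II-high cells without border markers, 13.8% for monocytes, 28.7% for Cd209a cells, 30.9% for neutrophils, 3.44% for border-type macrophages and 0.765% for MHC class II-high microglia. Of the 7 genes, 2 were called in MHC class II-high cells without border markers, 2 in monocytes and 2 in Cd209a cells. Neutrophils had 3 called and the other 2 classes 0. In border-type macrophages 1 of the 7 had an unadjusted p under 0.05, against 80 of all 784 genes. In MHC class II-high microglia it was 3 of the 7, against 91 of 784. DESeq2 also called 0 of the 7 in these 2 classes.

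The direction of calls depended on scaling. With TMM factors, 36 of all genes tested were higher and 84 lower in MHC class II-high cells without border markers, and with total size alone 120 and 51. For monocytes the counts were 33 and 75, then 67 and 62. For Cd209a cells they were 79 and 146, then 181 and 101, with 123 and 130 under median-of-ratios factors. For neutrophils they were 68 and 174, then 94 and 78, and 129 and 31 under median-of-ratios factors. For MHC class II-high microglia they were 3 and 3, then 7 and 0. The median log2 fold change of all genes tested was -1.12 in neutrophils with TMM factors and 0.09 with median-of-ratios factors, so neutrophil differences are best read relative to that shift. In the other classes it lay between -0.21 and 0.04 with TMM factors and rose to 0.41, 0.34 and 0.32 with total size alone in MHC class II-high cells without border markers, Cd209a cells and monocytes.

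**Figure D4:**
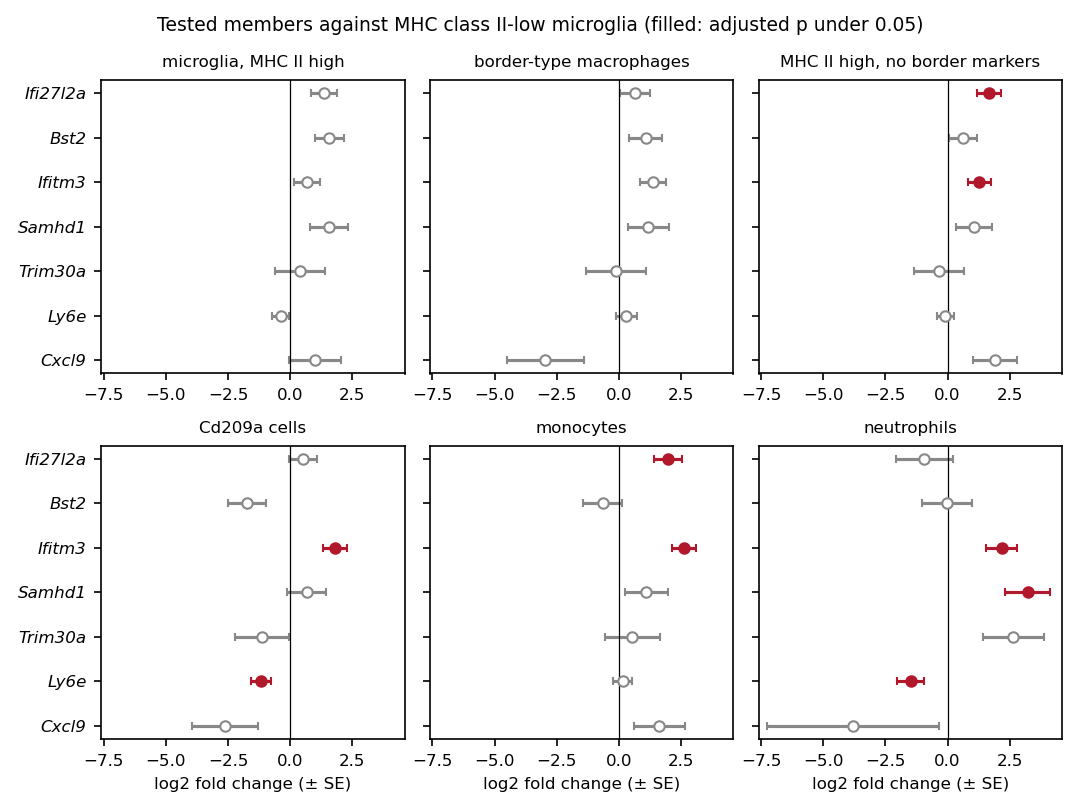
Log2 fold change with its standard error of the 7 tested genes in each class against MHC class II-low microglia, from the fit across 784 genes. Filled points passed an adjusted p of 0.05, and Ifitm3 is filled in 4 of the 6 panels.

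Of the 6 restriction factors and membrane proteins, 5 were tested. Ifitm3, which blocks fusion of viruses with endosomal membranes, was 0.502, 2.12, 2.55, 1.13 and 1.96 per 10000 in MHC class II-low microglia of replicates 1 to 5. In monocytes it was 1.81, 21.9 and 15.7 in replicates 1, 3 and 5. It was higher in each library that held both classes, and the lowest monocyte value lay within the microglial range. The fitted difference was 2.63 ± 0.49 (SE) on the log2 scale (adjusted p = 4.44e-05, edgeR), 2.21 with adjusted p = 0.0718 without replicate 5. Neutrophils gave 7.59, 8.58 and 7.78 in replicates 2, 4 and 5, all above every microglial library, with a fitted difference of 2.18 ± 0.63 (adjusted p = 0.00676). That call was lost with no filter on low counts (1.64, adjusted p = 0.437) and with at least 30 UMIs (1.90, adjusted p = 0.0867). Cd209a cells gave 17.1, 5.09 and 12.2 in replicates 2, 3 and 5, also above every microglial library, with a difference of 1.79 ± 0.49 (adjusted p = 0.00301), and 1.62 with adjusted p = 0.179 without replicate 5. Ifitm3 in MHC class II-high cells without border markers was 4.87, 3.24, 8.62 and 5.17 in replicates 1, 2, 3 and 5, all above the microglial range. Here the difference was 1.27 ± 0.46 (adjusted p = 0.0458), and it missed the threshold without replicate 3 (0.93, adjusted p = 0.401) and without replicate 5 (1.04, adjusted p = 0.411). Border-type macrophages gave 7.86 and 4.17, a difference of 1.36 ± 0.53 that was not called (adjusted p = 0.184).

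Ly6e, a small lipid-anchored surface protein that restricts several viruses, gave the most UMIs of any member and was found in 67.8% of cells. In MHC class II-low microglia it was 11.05, 20.1, 16.9, 11.3 and 19.6 per 10000. Cd209a cells gave 13.3, 9.95 and 11.96 in replicates 2, 3 and 5, each below the microglia of the same library, with a fitted difference of -1.18 ± 0.41 (adjusted p = 0.0211). It was lost in 9 of 14 alternatives, among them without replicate 3 (-1.31, adjusted p = 0.113), without replicate 5 (-1.32, adjusted p = 0.126), with total size alone (-0.61, adjusted p = 0.235) and in DESeq2 (-0.91, adjusted p = 0.167). In neutrophils Ly6e was 2.85, 20.01 and 3.89 in replicates 2, 4 and 5, so the groups overlapped, and the fitted difference of -1.48 ± 0.55 (adjusted p = 0.0325) was close to the median shift of all genes in that comparison. It was -0.24 with adjusted p = 0.802 under median-of-ratios factors, -0.77 (adjusted p = 0.392) without replicate 2, -0.95 (adjusted p = 0.247) without replicate 3 and -0.44 (adjusted p = 0.696) without replicate 5. Ly6e was 22.2 and 26.6 in border-type macrophages, just above the microglial libraries, and was not called there.

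Samhd1, an enzyme that depletes deoxynucleotides, was 9.49, 2.86 and 6.48 per 10000 in neutrophils of replicates 2, 4 and 5 and 0 to 1.47 in the 5 microglial libraries, with no overlap. The fitted difference was 3.22 ± 0.89 (adjusted p = 0.00493), and 2.90 with adjusted p = 0.0599 without replicate 2. Without replicate 3 or 5 it did not pass the filter. The highest neutrophil held 8 of the 18 UMIs, and the pooled level of 7.37 was 4.21 without it. Bst2, or tetherin, which holds budding virions at the cell surface, was 14.4, 7.46, 6.68, 0 and 5.63 in MHC class II-high microglia against 2.51, 1.06, 2.20, 0.564 and 1.96 in MHC class II-low microglia, a difference of 1.58 ± 0.57 that was not called (adjusted p = 0.205). Trim30a, a ubiquitin ligase family member, had its highest pooled level in neutrophils, at 4.51, and was not called there by edgeR (2.65 ± 1.24, adjusted p = 0.0913), though DESeq2 called it (3.84, adjusted p = 0.000742).

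Ly6a, the surface protein Sca-1, was too rare for the filter. In MHC class II-high cells without border markers it was 11.4, 0.540, 1.33 and 3.67 per 10000 in replicates 1, 2, 3 and 5, against 0, 0, 0.116 and 0.393 in MHC class II-low microglia of the same libraries. It was above the microglia in 4 of 4 libraries. A filter of at least 30 UMIs in all, chosen after the data were seen, kept 4134 genes and 35 of the 41. Under it the difference for Ly6a was 3.82 ± 0.99 (adjusted p = 0.0123), where 2.15% of genes were called in either direction and 2 of the 35 members, Ly6a and Ifi27l2a. In Cd209a cells, neutrophils, border-type macrophages and MHC class II-high microglia that filter called 4.77%, 4.35%, 0.387% and 0.0% of genes, and 1, 2, 0 and 0 of the 35 members. In the latter 2 classes, 8 and 7 of the 35 had an unadjusted p under 0.05, against 336 and 362 of all 4134 genes. For Ly6a without replicate 1, 3 or 5 the difference was 3.24, 4.37 and 4.78, with adjusted p = 0.062, 0.220 and 0.182. The highest cell held 20 of the 77 UMIs.

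**Figure D5:**
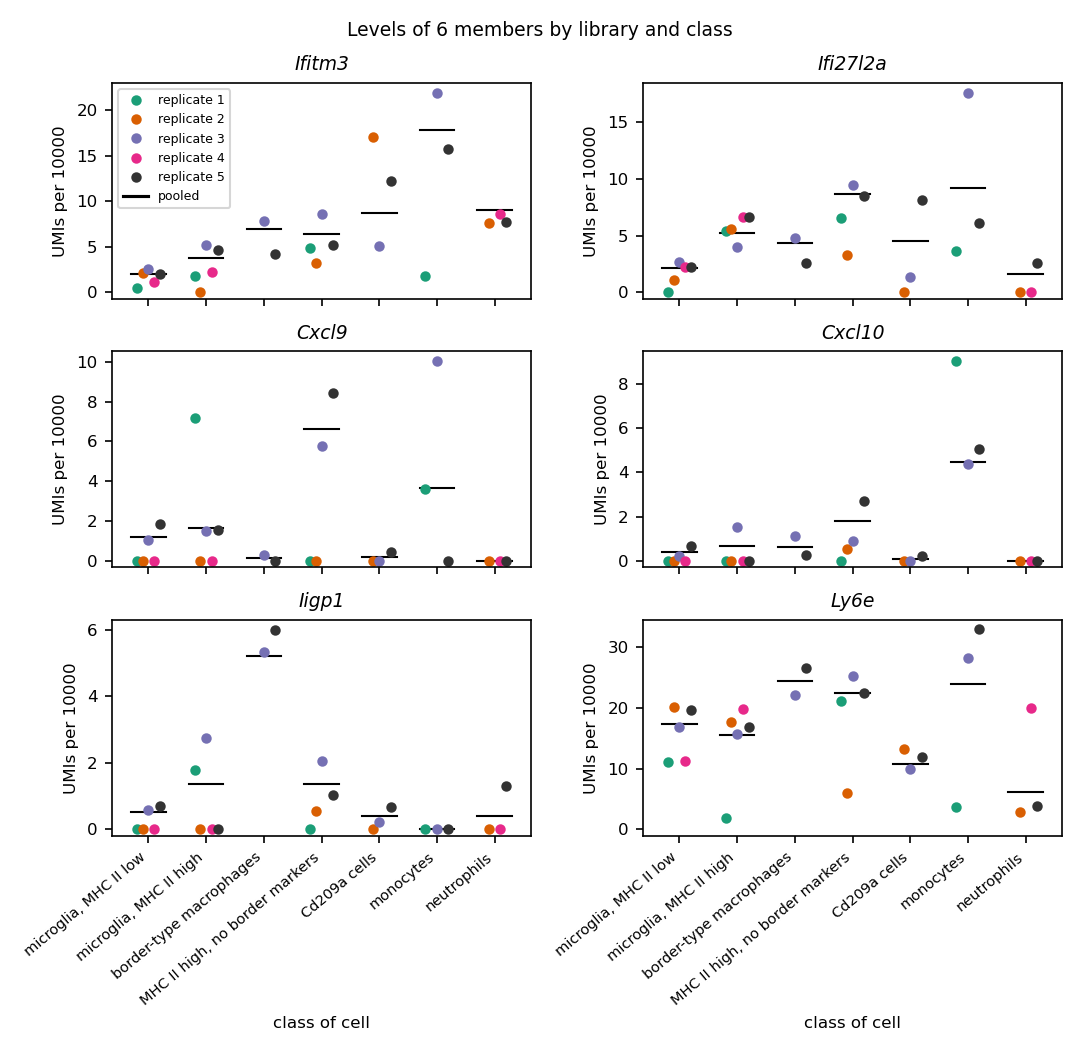
Levels of Ifitm3, Ifi27l2a, Cxcl9, Cxcl10, Iigp1 and Ly6e in UMIs per 10000 by class of cell. Points are libraries with at least 5 cells of the class and lines the pooled level. Iigp1 stood at 5.33 and 5.998 in the border-type macrophage libraries and at 0 in the 3 monocyte libraries. The pooled monocyte 0 allows up to 0.610, and a single library allows more.

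Among the antiviral effectors and modifiers, Ifi27l2a carried most UMIs. This gene encodes a small mitochondrial or membrane protein whose mouse family is strongly induced by type I interferon. It was 0, 1.06, 2.67, 2.26 and 2.26 per 10000 in MHC class II-low microglia. In MHC class II-high cells without border markers it was 6.498, 3.24, 9.42 and 8.44 in replicates 1, 2, 3 and 5, all above the microglial range, with a fitted difference of 1.67 ± 0.49 (adjusted p = 0.0139). Without replicate 5 it was 1.54 with adjusted p = 0.244, and without replicate 3 it did not pass the filter. Monocytes gave 3.61, 17.5 and 6.09, also above the microglial range, with a difference of 1.97 ± 0.56 (adjusted p = 0.0089), and 2.25 with adjusted p = 0.104 without replicate 5. In MHC class II-high microglia all 5 libraries, at 3.95 to 6.65, were above every MHC class II-low library, yet the difference of 1.37 ± 0.53 was not called (adjusted p = 0.271). A Cd209a cell held 21 of that class's 45 Ifi27l2a UMIs, and its pooled level of 4.52 was 2.47 without that cell.

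The other antiviral genes were sparse, with 30 to 158 UMIs each. Isg15, a ubiquitin-like protein that is attached to other proteins, had a pooled level of 2.85 per 10000 in monocytes and 0.468 in MHC class II-low microglia. The monocyte value came from replicate 3 at 7.51, against 0 and 0.507 in replicates 1 and 5. Rsad2, or viperin, which makes a nucleotide that stops viral RNA synthesis, was 2.64 in monocytes, of which 9 of 13 UMIs were in a single cell. In neutrophils it was 3.69, with 8 of 9 UMIs in a single cell, and without these cells the levels were 0.834 and 0.419. Oasl2, of the oligoadenylate synthetase family, was spread more evenly. It was 1.62, 1.08, 2.31 and 2.11 in MHC class II-high cells without border markers against 0, 0, 1.39 and 0.688 in MHC class II-low microglia of the same libraries. Ifit2, of the RNA-binding Ifit family, had its highest level in monocytes at 2.64, and Rtp4, another interferon-induced gene, at 2.64 too. Single cells held 7 and 5 of the 13 UMIs of each, and without them the levels were 1.25 and 1.72. Ifit1, Ifit3, Usp18 (which removes Isg15 from proteins), Oas1a, Mx1 (a GTPase active against influenza viruses), Ifi44, Ifi35 and Xaf1 stayed at or below 1.83 in every gated class. For Ifit1, 22.7% of all 44 UMIs were in the T or NK cell-marked cell described above. Ifit1 and Ifit3 have close copies and Oas1a lies in a cluster of similar genes, so their UMIs may be shared between copies.

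The interferon-gamma chemokines and GTPases split between classes gene by gene. Cxcl9, a chemokine that draws Cxcr3-bearing T cells, was 0, 0, 5.78 and 8.44 per 10000 in MHC class II-high cells without border markers of replicates 1, 2, 3 and 5. In MHC class II-low microglia it was 0, 0, 1.04, 0 and 1.87, and in border-type macrophages 0.281 and 0 in replicates 3 and 5. It was therefore above the microglia in replicates 3 and 5 and level at 0 in replicates 1 and 2. The fitted difference of 1.89 ± 0.89 was not called (adjusted p = 0.139), nor was 2.23 ± 0.77 under the added filter (adjusted p = 0.0985). With total size alone under that filter it was called (2.27, adjusted p = 0.0438), as were Ifi27l2a, Ifitm3 and Ly6a. These were 4 of 35 members, where 92 of all 4134 genes were called higher and 73 lower. The highest cell held 48 of the 189 UMIs of the class, and the pooled level of 6.62 was 4.98 without it. In neutrophils Cxcl9 was at 0, which allows up to 1.23 per 10000.

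Cxcl10, a ligand of the same receptor, was higher in monocytes, at 9.03, 4.38 and 5.07 per 10000 in replicates 1, 3 and 5, than in any library of MHC class II-low microglia, at 0 to 0.688. Under the added filter the difference was 3.54 ± 0.99 (adjusted p = 0.0212), where 2.78% of genes and 2 of 35 members were called, the other being Ifitm3. The median of all genes was -0.77 in that comparison, and the monocyte level rested on 22 UMIs in 3 cells. Without replicate 1, 3 or 5 it was 2.95, 4.10 and 4.86, with adjusted p = 0.128, 0.318 and 0.193.

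Iigp1, a GTPase that attacks the vacuoles of intracellular parasites, was 5.33 and 5.998 per 10000 in border-type macrophages of replicates 3 and 5. MHC class II-low microglia of those libraries had 0.580 and 0.688, MHC class II-high cells without border markers 2.04 and 1.02, and monocytes 0 in both. The 0 of the pooled monocytes allows up to 0.610 per 10000, and a single library allows more. The 42 UMIs in border-type macrophages were in 15 of the 80 cells, and the pooled level of 5.20 was 4.05 without the highest cell. Under the added filter the difference from MHC class II-low microglia was 3.19 ± 0.96 and was not called (adjusted p = 0.132, unadjusted p = 0.000955). In both replicates Iigp1 was higher in border-type macrophages than in MHC class II-high cells without border markers, and Cxcl9 was lower. These differences were not tested. Gbp7, Irgm1 and Igtp, of the same GTPase families, also had their highest pooled levels in border-type macrophages, at 2.72, 3.96 and 1.98.

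Gbp2, a guanylate-binding protein of the host defense against vacuolar microbes, was 4.87, 0, 3.999 and 2.99 per 10000 in MHC class II-high cells without border markers and 1.96 and 2.61 in border-type macrophages. MHC class II-low microglia gave 0 to 1.16. Gbp3 and Ifi47, an immunity-related GTPase, were also highest in MHC class II-high cells without border markers, at 1.23 and 2.07, close to 1.22 in monocytes for Gbp3 and 2.05 in MHC class II-high microglia for Ifi47. Gbp5, a further guanylate-binding protein, gave 19 UMIs in all, 6 of them in a single cell. In neutrophils Gbp2, Gbp3, Gbp5, Gbp7 and Ifi47 were all at 0 UMIs. The Gbp genes lie together on chromosome 3 and resemble each other, so reads may be split between them.

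The transcription factors of the response were present at low levels, apart from Irf7 at 0 UMIs in neutrophils. Irf7, which drives type I interferon genes, was 1.81, 6.89 and 3.55 per 10000 in monocytes of replicates 1, 3 and 5 and 0 to 1.51 in MHC class II-low microglia, with no overlap, although the replicate 1 monocyte value is 1 UMI. Irf1, a GAS-driven factor, was 3.66 in monocytes, 2.60 in border-type macrophages, 2.52 in MHC class II-high cells without border markers and 0.766 in MHC class II-low microglia. Irf9 and Stat2, which act in the type I complex, had pooled levels from 0.203 in monocytes to 1.51 in Cd209a cells for Irf9 and for Stat2 from 0.1003 in Cd209a cells to 0.735 in MHC class II-high cells without border markers. Of the 4 factors none was called under the added filter.

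The nucleic acid sensors gave 160 UMIs (5.60 per 10000) in MHC class II-high cells without border markers, 28 (5.69) in monocytes and 36 (1.53) in MHC class II-low microglia. Neutrophils gave 0 of 24413 UMIs, which allows up to 1.23 per 10000. Zbp1, a sensor of Z-form nucleic acid that can trigger cell death, was 1.33 and 1.02 in replicates 3 and 5 of MHC class II-high cells without border markers and 0.116 and 0.0982 in the microglia. Its highest pooled level was in monocytes, at 1.83 from 9 UMIs, and was 1.06 without their highest cell. The pooled level in MHC class II-high cells without border markers was 1.05. Ifi204, of the family of cytosolic DNA sensors, was highest in monocytes at 3.46. Ifih1 and Dhx58, which bind viral double-stranded RNA, reached 1.40 and 0.682 among the gated classes of at least 30 cells, in MHC class II-high cells without border markers and in MHC class II-high microglia. The Dhx58 level came from 5 UMIs, 4 of them in a single cell, and was 0.141 without it. A single T or NK cell-marked cell held 3 Ifih1 UMIs. Slfn5 and Slfn2, of the Schlafen family, had their highest pooled levels in monocytes (4.88) and neutrophils (2.05), and Parp14, an ADP-ribosyltransferase, in border-type macrophages (1.98). The neutrophil Slfn2 level rests on 5 UMIs and was near that of border-type macrophages (1.98), and without the highest cell of each class it was 0.865 against 1.75.

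Several members ranked high among all genes once all marker genes were set aside. When 3450 genes with at least 50 UMIs were ranked by the level in a class over the level in all other kept cells, with 0.5 per 10000 added to both, the first 10 genes of MHC class II-high cells without border markers included Cxcl9, Ly6a and Gbp2. Cxcl9 led that list, at 6.62 against 0.933 per 10000. The first 10 of monocytes included Cxcl10, Rsad2 and Isg15, and those of border-type macrophages Iigp1. Those of the other 4 gated classes included none of the 41. At most 41 of the 3450 ranked genes could be members, so a list of 10 with none says little. The ranking pools libraries that differ in their classes and depth. Ranked within replicate 3 alone, the first 10 of MHC class II-high cells without border markers held Cxcl9 and Ifih1, and within replicate 5 Cxcl9 and Ly6a. Within replicate 1 they held Ly6a and within replicate 2 none. For monocytes they held Rsad2, Isg15 and Ifit2 in replicate 3, Cxcl10 in replicate 1 and none in replicate 5, and for border-type macrophages Iigp1 in replicate 5 and none in replicate 3. This ranking was made after the values were seen and is given without a test.

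Of the interferons and their signaling, Ifng, Ifnb1, Ifna2 and Ifna4 had 0 UMIs in the kept cells, which allows up to 0.0265 per 10000 for each. The receptors were present, with 96 UMIs of Ifnar1, 168 of Ifnar2, 470 of Ifngr1 and 264 of Ifngr2. Among 22 receptor and signaling genes 5 were tested. Ifngr1 was lower in MHC class II-high cells without border markers (log2 fold change -1.47 ± 0.45, adjusted p = 0.0167, edgeR), with pooled levels of 2.45 against 5.79. Irf8 was lower in Cd209a cells (-2.81 ± 0.84, adjusted p = 0.00717) and in neutrophils (-6.62 ± 2.19, adjusted p = 0.017, 1 UMI in neutrophils). DESeq2 did not call Irf8 in neutrophils (-2.52, adjusted p = 0.187).

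The MHC class I and immunoproteasome list had 7 of 16 genes tested, and B2m was the only gene edgeR called. It was lower in Cd209a cells (-1.21 ± 0.31, adjusted p = 0.00191) and in neutrophils (-1.06 ± 0.35, adjusted p = 0.0152), the latter within the median shift. DESeq2 did not call B2m in neutrophils (0.19, adjusted p = 0.719) and called H2-D1 higher there (1.26, adjusted p = 0.0484). Of 47 further interferon-regulated genes 5 were tested. Ms4a4c, a membrane protein of the MS4A family, was higher in monocytes (3.97 ± 0.98, adjusted p = 0.00203), in Cd209a cells (3.22 ± 0.99, adjusted p = 0.00912) and in MHC class II-high cells without border markers (2.62 ± 0.92, adjusted p = 0.04), where DESeq2 did not call it (2.42, adjusted p = 0.11). Lgals3bp was lower in Cd209a cells (-2.31 ± 0.69, adjusted p = 0.00755) and Ifi30, a lysosomal thiol reductase, lower in neutrophils (-6.75 ± 2.24, adjusted p = 0.0177). The Ifi30 fold rests on 1 UMI in neutrophils, and DESeq2 did not call it (-2.74, adjusted p = 0.168). Of 11 nucleic acid sensing genes only Unc93b1 was tested, and it was lower in Cd209a cells (-1.71 ± 0.56, adjusted p = 0.0152). In MHC class II-high microglia and in border-type macrophages edgeR called none of the tested genes of these lists. Under the added filter Ifi203, Ifi211 and Mndal, of the same family as Ifi204, were also higher in MHC class II-high cells without border markers, with adjusted p = 0.049, 0.0278 and 0.0155. Mndal was called higher in monocytes too, where its pooled level was 3.25 against 2.35 in the former class. Tlr7, an endosomal RNA sensor, was lower under that filter in Cd209a cells (-4.26, adjusted p = 0.00324) and monocytes (-4.27, adjusted p = 0.0241). The same filter lost the call of Ifngr1 in MHC class II-high cells without border markers (adjusted p = 0.264). In Cd209a cells it lost those of Irf8, B2m, Lgals3bp and Unc93b1, with adjusted p = 0.0594, 0.0835, 0.0835 and 0.198.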

How the data were processed

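Single CD45highCD11bhigh cells from brains were sorted into 384-well plates and processed by MARS-seq in 5 libraries. The UMI counts deposited by the authors are not normalized, with 1 column a well, and the submitters' processing notes name mm10 and bcl2fastq 2.15.0.4. An aligner is not named there. All libraries carry 1 treatment label and 1 sequencing batch, and the mice behind them are not given, so p-values measure only the spread between libraries, which may be technical. The 384 well barcodes recur in every library by plate design. Doublets were limited by the sort and no doublet caller was run.

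Wells with 1 cell and at least 500 UMIs were kept, ERCC spike-in rows excluded. Gates used summed markers per 10000 UMIs: neutrophil 1000, border 60, microglia 80, monocyte 40 and Cd209a 30, MHC class II under 100 (low) or at least 200 (high), and at least 3 marker UMIs; 46 cells lay within 20 percent of the MHC class II cut and 75 of the microglial one. Counts were added up over the cells of a class in each library (at least 5 cells, 25 sums), and all classes were fitted together in edgeR 4.0.16 (R 4.3.3; TMM, robust quasi-likelihood, library as a block, filterByExpr) with MHC class II-low microglia as reference, 65 gate genes left out and Benjamini-Hochberg adjustment at 0.05 over all genes tested. Scripts were tested on simulated data. Exact intervals are 95%, and a count of 0 allows 3 counts of the total. Alternatives were DESeq2 1.42.0, other scaling, filters, UMI minimums, gates, no block and leaving out each library; the filter of 30 UMIs and scaling by total size were added after the data were seen. Every member is named by its role list, and genes of the other lists where called, except 1 gene that is not reported here. The members and lists were chosen with earlier results of these data known.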

Additional observations from a re-analysis of the deposited data

Results flagged for a closer look

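With 33 groups of 5 libraries examined for a library apart from the rest, 2 stood out, and chance flags about 1 in 20. Both were replicate 1 of MHC class II-high microglia, which held 7 cells. Ly6e was 1.80 UMIs per 10000 there, against a median of 16.9 over the 5 libraries. Cxcl9 was 7.19 per 10000 there, against a median of 1.52.

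The 1075 wells with a cell but fewer than 500 UMIs, which enter no comparison, held 1233 UMIs of the 41 genes, 46.7 per 10000 (exact Poisson 95% interval 44.1 to 49.4). Empty wells gave 31.2 per 10000 from 1 UMI (0.791 to 174), so the levels could not be told apart at this depth.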

How the results depend on the processing

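No member call changed direction under any alternative run. The number of members called in MHC class II-high cells without border markers (2) was 0 with DESeq2, with at least 300 UMIs per cell and without the library as a block, 1 with median-of-ratios factors and with no filter, and 4 with at least 1000 UMIs. In Cd209a cells (2) it was 1 with DESeq2, median-of-ratios factors, no filter, stricter gates, no replicate block, total size only and at least 30 UMIs in all. In monocytes (2) it was 1 with no filter and with at least 300 UMIs, and 5 with at least 1000. In neutrophils (3) it was 1 with no filter. In border-type macrophages (0) it was 1 with at least 300 UMIs or stricter gates and 2 with at least 1000 UMIs. Leaving out each library gave 0 to 2, 0 to 2, 0 to 3, 1 to 3 and 0 to 1 calls in the same order, and 0 in MHC class II-high microglia. The cause was not tested, except that fewer libraries enter each of the last fits. The fit of border-type macrophages without replicate 3 or 5, which leaves 1 library of them, was not run. The genes tested and called also moved with the setting. With no filter 41 members and 15835 genes were tested. In MHC class II-high cells without border markers 18 genes were then called higher and 18 lower. With DESeq2 it was 34 and 93 of 784 there, and with median-of-ratios factors 27 and 93, with 7 members tested. Shares over all genes are not given here for the other settings, so the counts are no result about the members.

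Among single calls, Ifitm3 kept its call in 13 of 14 alternatives in monocytes, 13 of 14 in Cd209a cells and 11 of 13 in neutrophils, but in 6 of 14 in MHC class II-high cells without border markers, where adjusted p ranged from 0.00567 to 0.411. Ifi27l2a kept it in 8 of 13 and, in monocytes, 9 of 13, and Samhd1 in neutrophils in 9 of 11. Ly6e kept it in 5 of 14 in Cd209a cells and 4 of 13 in neutrophils. Under the added filter, Ly6a kept it in 4 of 7 and Cxcl10 in 3 of 7.

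The interferon-gamma set in border-type macrophages (10.5 per 10000) was 11.5 as the mean of libraries, 11.3 with at least 1000 UMIs, 11.5 with stricter gates and 13.3 with Gm42418, Gm26917 and mitochondrial rows out of the total, which raised the type I set there from 2.72 to 3.45. Leaving out each library gave 9.18 to 10.9 for the interferon-gamma set there, 3.22 to 9.37 for the type I set in neutrophils (9.37 without replicate 2) and, in monocytes, 2.71 to 12.2 for the type I set and 3.01 to 8.82 for the interferon-gamma set (2.71 and 3.01 without replicate 3). In Cd209a cells the ranges were 2.17 to 4.61 (2.17 without replicate 5) and 1.06 to 2.53. Depth limits the sparse members: 34 of the 41 genes did not pass the planned filter.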
